A study of Mus musculus with 18 samples.

Results

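The subunits of the Polycomb repressive complexes were examined in RNA-seq of whole mouse embryos at E11.5. The 10 genes were taken by name, as subunits of these complexes, from the 34244 named genes of the expression table, and comprised the PRC2 genes *Ezh1*, *Ezh2*, *Eed*, *Suz12* and *Jarid2* and the canonical PRC1 genes *Ring1*, *Rnf2*, *Cbx2*, *Cbx7* and *Bmi1*. All 10 were present in the table and passed the filter on low values. The study asked whether the DNA methyltransferase Dnmt3b needs its catalytic activity for embryogenesis, and compared 3 embryos each with the labels *Dnmt3b*+/+, *Dnmt3b*-/- and *Dnmt3b*CI/CI, all of the FVB strain, with 1 library of total RNA per embryo. The -/- label stands for 2 null alleles, derived from a loxP-flanked *Dnmt3b*, and CI/CI for 2 alleles that encode a catalytically inactive Dnmt3b from the endogenous locus, made by CRISPR/Cas9 editing of zygotes. Descendants of different CI founders were not told apart, mutant embryos came from crosses of heterozygous parents, and only live embryos were processed. Sex and litter of the embryos were not stated.

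Polycomb proteins keep developmental regulators silent through histone marks. PRC2 methylates histone H3 at lysine 27, with Ezh2 or the less active Ezh1 as its catalytic subunit, Suz12 as its scaffold, Eed as the subunit that binds the mark and stimulates the enzyme, and Jarid2 as an accessory subunit that helps recruit it. Canonical PRC1 recognizes the methylated histone through a chromodomain protein such as Cbx2 or Cbx7, and ubiquitinates histone H2A through a pair of RING proteins, Rnf2 (Ring1b) or Ring1 (Ring1a) with Bmi1 (Pcgf4) or Pcgf2. In the embryo these complexes restrain Hox genes, lineage regulators and the Ink4 locus, and Dnmt3b is a de novo DNA methyltransferase.

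The totals behind the normalization ranged from 38451729 to 49808777 reads per library. *Dnmt3b* itself had 2.45, 3.12 and 3.33 FPKM (fragments scaled by gene length and library total) under the *Dnmt3b*-/- label, 2.25, 1.62 and 2.04 FPKM in *Dnmt3b*+/+ and 2.06, 1.98 and 2.32 FPKM in *Dnmt3b*CI/CI. It was called as higher under the -/- label than in *Dnmt3b*+/+ (log2 difference 0.57, adjusted p = 0.0248 from limma) and than in *Dnmt3b*CI/CI (0.46, adjusted p = 0.0488). A value summed over the gene cannot show the loss of some of its exons, so it does not check the label, and these embryos are named by their label throughout. Of 71 entries in 9 lists of tissue markers, from neurons to lens, 70 were in the table and all 70 passed the filter, which asks for a level in any 3 of the 9 embryos and so does not check each library. Some libraries stood apart within their group. The summed level of 8 heart markers was 4.91, 118.2 and 30.6 FPKM in *Dnmt3b*+/+ replicates 1 to 3, 27.7, 130.5 and 75.3 under the *Dnmt3b*-/- label and 93.0, 113.7 and 7.62 in *Dnmt3b*CI/CI. The *Dnmt3b*CI/CI library of replicate 2 was the lowest of its group for lens markers, with a summed level of 10.5 FPKM beside 42.3 and 90.1 FPKM in the other *Dnmt3b*CI/CI libraries. Other lists varied as well. Neuron markers summed to 423.8 FPKM in *Dnmt3b*-/- replicate 1 beside 222.5 and 190.6 FPKM in replicates 2 and 3. Hepatocyte markers summed to 35.9 FPKM in *Dnmt3b*+/+ replicate 2 beside 264.5 and 146.9 FPKM in replicates 1 and 3. Results with single libraries left out are given beside the comparisons, in part as a range over all such fits.

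In *Dnmt3b*+/+ embryos the 10 subunits covered a wide range of levels, compared here in FPKM, which is scaled by gene length. *Cbx2* was highest with 16.8 ± 1.26 FPKM (SD, n = 3), followed by *Ezh2* with 13.2 ± 1.18, *Rnf2* with 10.5 ± 0.373, *Suz12* with 9.77 ± 1.21, *Bmi1* with 8.58 ± 0.674, *Jarid2* with 8.46 ± 0.413, *Eed* with 6.65 ± 0.448 and *Ring1* with 5.62 ± 0.562 FPKM. *Ezh1* had 1.90 ± 0.173 and *Cbx7* 0.430 ± 0.0323 FPKM. The levels of *Rnf2* and *Suz12*, of *Suz12* and *Bmi1*, and of *Bmi1* and *Jarid2* overlapped between embryos, whereas the other neighbors in this order did not. The mean of *Cbx2* was 39.0 times that of its relative *Cbx7*. The shallowest member was *Cbx7*, with 88 to 151 reads per library, which alone gives a counting error of 10.7% at the fewest reads. The other 9 members had at least 397 reads in every library. These are levels in whole embryos, so that a lower value can mean fewer cells with the transcript or less of it per cell, which cannot be told apart.

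**Figure D1:**
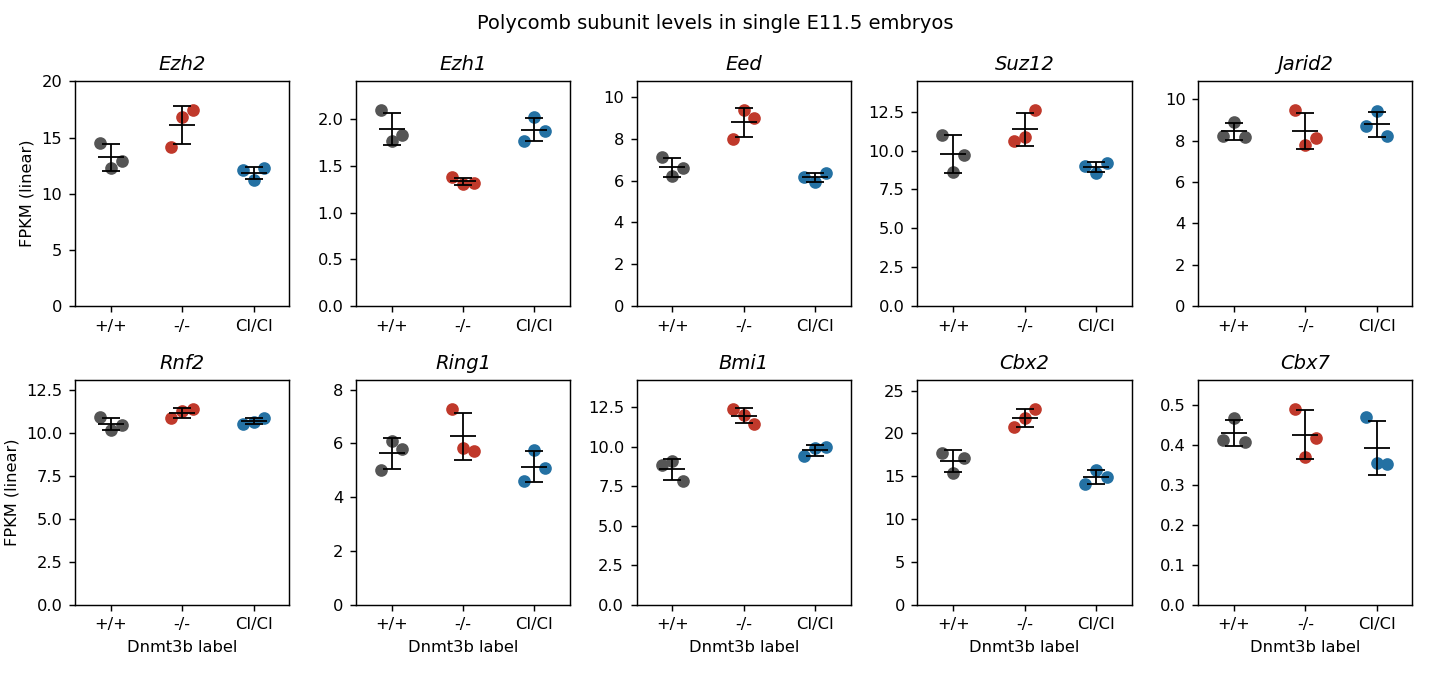
Level of each of the 10 subunits in FPKM on a linear axis from 0, with 1 point per embryo, 3 embryos per *Dnmt3b* label and bars for mean and SD. The embryos labelled *Dnmt3b*-/- lie above all *Dnmt3b*+/+ embryos for *Eed*, *Bmi1* and *Cbx2* and below them for *Ezh1*, while the other 6 members overlap.

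The sequences before the start sites of *Bmi1* and *Ezh1*, the members with the largest fitted differences in either direction between the embryos labelled *Dnmt3b*-/- and *Dnmt3b*+/+, are given as RefSeq lists them for GRCm38.p6. Each run holds the 250 bases before the start in the direction of transcription, with every CpG, the substrate of DNA methyltransferases, in capitals. The *Bmi1* run lies at chr2:18676768-18677017 on the plus strand and the *Ezh1* run at chr11:101226464-101226713 on the minus strand. Both end at the base before the gene in GENCODE M21.
Bmi1: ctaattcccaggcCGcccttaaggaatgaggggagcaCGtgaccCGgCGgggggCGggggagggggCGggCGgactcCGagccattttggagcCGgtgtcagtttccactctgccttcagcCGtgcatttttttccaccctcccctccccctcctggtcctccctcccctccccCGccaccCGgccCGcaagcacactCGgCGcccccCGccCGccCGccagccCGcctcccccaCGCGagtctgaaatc
Ezh1: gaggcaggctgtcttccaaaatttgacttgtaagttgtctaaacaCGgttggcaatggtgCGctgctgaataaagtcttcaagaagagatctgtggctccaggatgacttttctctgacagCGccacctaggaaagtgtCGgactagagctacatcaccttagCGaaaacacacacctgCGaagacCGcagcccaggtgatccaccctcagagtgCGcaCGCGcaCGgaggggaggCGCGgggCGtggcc
The *Bmi1* run holds 21 CpGs and the *Ezh1* run 14, against a median of 6 and an upper quartile of 16 over all 32851 promoters in the RefSeq table. Among the other members with an entry, *Suz12* had 37 CpGs, *Ring1* 30, *Ezh2* and *Cbx7* 23 each, *Rnf2* 20 and *Eed* 12, and the 2 listed starts of *Jarid2* had 23 and 22. An entry for *Cbx2* was not found. The GC box, GGGCGG on either strand, occurred 6 times before *Bmi1* and not before *Ezh1*, *Ezh2* or *Eed*, and 32.7% of all promoters held it. The CCAAT box, CCAAT on either strand, occurred 3 times before *Ezh2* and once before *Suz12*, *Cbx7* and 1 start of *Jarid2*, and 33.8% of promoters held it. An E2F-type site, read as TTTGGCGC, TTTCGCGC, TTTCCCGC or TTTGCCGC on either strand, was found once before *Suz12* and before none of the other 8 members, against 1.86% of all promoters. These counts describe letters in a fixed window, and DNA methylation was not analysed here.

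The first comparison asked how the subunits differed when *Dnmt3b* was labelled as lost. Relative to *Dnmt3b*+/+, *Bmi1*, *Eed* and *Cbx2* were higher in the embryos labelled *Dnmt3b*-/-, by 1.39-, 1.32- and 1.30-fold, and *Ezh1* was lower, at 0.72 times the level. The other 6 members, *Ezh2*, *Suz12*, *Jarid2*, *Ring1*, *Rnf2* and *Cbx7*, did not pass the test. Differences are given on the scale of log2(FPKM + 0.1) and adjusted p-values are from limma over all 19397 genes tested, with 0.05 as the threshold. By this rule 25.8% of all genes tested were called, 9.41% as higher and 16.4% as lower, beside which 4 called members of 10, 3 higher and 1 lower, do not set the list apart. Its median log2 difference was 0.18 and that of all genes tested was -0.07. No member also reached a fold of 2, which 4.45% of all genes did. The embryos of the 2 groups did not overlap for the same 4 members, beside 38.9% of all genes tested. With each embryo left out in turn, the share of all genes called ranged from 12.4% without *Dnmt3b*-/- replicate 2 to 35.6% without *Dnmt3b*-/- replicate 1, and was 14.3% without *Dnmt3b*-/- replicate 3 and 15% without *Dnmt3b*+/+ replicate 3. Calls lost in such fits are given with their log2 difference or its range.

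Among the PRC2 genes, the catalytic subunits were followed first. *Ezh1* (ENSMUSG00000006920, GRCm38 chr11:101191115-101226463, minus strand) had 1.38, 1.31 and 1.32 FPKM in the 3 embryos labelled *Dnmt3b*-/-, against 2.09, 1.77 and 1.83 in *Dnmt3b*+/+ and 1.77, 2.02 and 1.88 in *Dnmt3b*CI/CI. All 3 embryos labelled *Dnmt3b*-/- lay below the other 6. The log2 difference from *Dnmt3b*+/+ was -0.47 (SE 0.09, adjusted p = 0.0086), and the call was lost with quantile normalization (-0.29, adjusted p = 0.056). *Ezh2* (ENSMUSG00000029687, chr6:47530139-47595341, minus strand) had 14.2, 16.8 and 17.4 FPKM in embryos labelled *Dnmt3b*-/- and 14.55, 12.3 and 12.9 in *Dnmt3b*+/+. The groups overlapped through the first embryo of each. The log2 difference was 0.28 (SE 0.09, adjusted p = 0.0537). It passed the threshold without *Dnmt3b*+/+ replicate 1 (0.35, adjusted p = 0.0347) or without *Dnmt3b*-/- replicate 1 (0.37, adjusted p = 0.01).

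*Eed* (ENSMUSG00000030619, chr7:89954654-89980983, minus strand), the reader of the PRC2 mark, was measured at 8.004, 9.36 and 9.01 FPKM under the *Dnmt3b*-/- label, against 7.12, 6.23 and 6.59 in *Dnmt3b*+/+. The groups did not overlap, and the log2 difference was 0.40 (SE 0.08, adjusted p = 0.00846). *Suz12* (ENSMUSG00000017548, chr11:79993106-80034123, plus strand), the scaffold, had 10.6, 10.9 and 12.6 against 11.01, 8.60 and 9.70 FPKM. One *Dnmt3b*+/+ embryo reached into the range of the embryos labelled *Dnmt3b*-/-, and the log2 difference was 0.22 (SE 0.10, adjusted p = 0.133). Without that embryo, *Dnmt3b*+/+ replicate 1, it was 0.31 (adjusted p = 0.0477), and 5 members were called higher instead of 3, with 23% of all genes called in place of 25.8%. This is also the library with the lowest sum of heart markers. *Jarid2* (ENSMUSG00000038518, chr13:44729474-44921643, plus strand), the accessory subunit, had 9.47, 7.81 and 8.13 against 8.25, 8.93 and 8.18 FPKM. Its log2 difference of -0.00 had a 95% interval from -0.20 to 0.19.

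Among the PRC1 genes, *Bmi1* and *Cbx2* rose and the other 3 did not pass the test. *Bmi1* (ENSMUSG00000026739, chr2:18677018-18686629, plus strand), the Pcgf partner of the RING proteins, was measured at 12.4, 12.02 and 11.45 FPKM under the *Dnmt3b*-/- label, at 8.84, 9.08 and 7.81 FPKM in *Dnmt3b*+/+ and at 9.39, 9.92 and 10.01 FPKM in *Dnmt3b*CI/CI. The 3 genotypes formed 3 separate ranges, with *Dnmt3b*CI/CI in between. The log2 difference between the embryos labelled *Dnmt3b*-/- and *Dnmt3b*+/+ was 0.48 (SE 0.07, adjusted p = 0.00276), the smallest adjusted p of the 10 genes. *Cbx2* (ENSMUSG00000025577, chr11:119022962-119031270, plus strand), the more abundant chromodomain reader, had 20.7, 21.7 and 22.8 FPKM against 17.8, 15.3 and 17.2 in *Dnmt3b*+/+. The groups did not overlap and the log2 difference was 0.38 (SE 0.07, adjusted p = 0.00834).

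*Cbx7* (ENSMUSG00000053411, chr15:79915807-79971119, minus strand), a chromodomain reader known from pluripotent cells, had 0.491, 0.370 and 0.418 FPKM against 0.414, 0.467 and 0.409. These groups overlapped, and the log2 difference of -0.02 had a 95% interval from -0.34 to 0.31. Of the ubiquitin ligases, *Rnf2* (ENSMUSG00000026484, chr1:151458004-151500955, minus strand) had 10.8, 11.3 and 11.4 FPKM against 10.9, 10.2 and 10.45, with a log2 difference of 0.09 (SE 0.05, adjusted p = 0.215). It also varied least of the members, with the highest of the 9 embryos 1.12 times the lowest. *Ring1* (ENSMUSG00000024325, chr17:34020792-34024680, minus strand) had 7.28, 5.83 and 5.70 FPKM against 4.99, 6.07 and 5.80. The first embryo labelled *Dnmt3b*-/- was the highest of all 9, the other 2 lay within the *Dnmt3b*+/+ range, and the log2 difference was 0.15 (SE 0.12, adjusted p = 0.393).

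**Figure D2:**
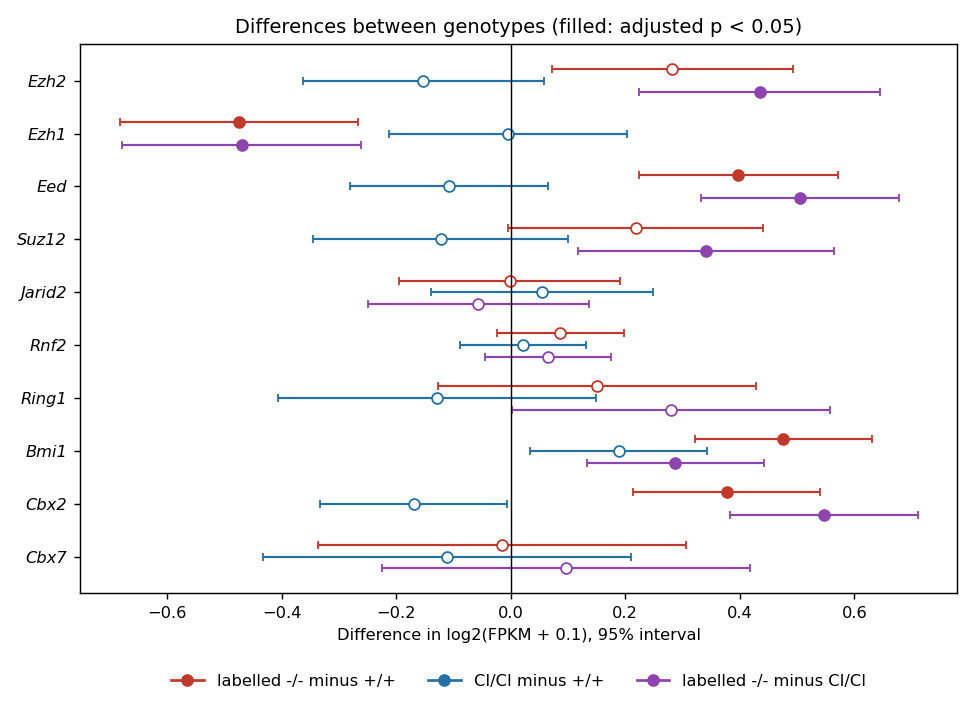
Fitted differences in log2(FPKM + 0.1) of the 10 subunits for the 3 comparisons, with 95% intervals from limma on 9 embryos, where filled points passed an adjusted p of 0.05. *Eed*, *Cbx2* and *Bmi1* lie to the right and *Ezh1* to the left for the embryos labelled *Dnmt3b*-/- against either other genotype, and no blue point is filled for *Dnmt3b*CI/CI against *Dnmt3b*+/+.

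Genes of the dividing cell moved beside these members. Of 14 proliferation genes, 11 were higher under the *Dnmt3b*-/- label than in *Dnmt3b*+/+ and 3 did not pass the test, with a median log2 difference of 0.56. *Rrm2*, a ribonucleotide reductase subunit, *Bub1*, a mitotic checkpoint kinase, *Top2a*, the replication-linked topoisomerase, and *Ccnb1*, cyclin B1, differed by 0.95, 0.78, 0.74 and 0.71 on the log2 scale (adjusted p = 0.00966, 0.0252, 0.0117 and 0.0135). The summed level of the list was 325.5 to 406.3 FPKM in the embryos labelled *Dnmt3b*-/-, 204.9 to 293.1 in *Dnmt3b*+/+ and 226.8 to 244.7 in *Dnmt3b*CI/CI. Without *Dnmt3b*-/- replicate 2 only 4 of the 14 genes were called, and without *Dnmt3b*-/- replicate 3 only 7. *Bub1* kept its call in 5 of the 9 fits that left out 1 embryo, with log2 differences from 0.58 to 0.96 over the 9, and lost it without a filter, with the replicate block and with only these 2 genotypes fitted (adjusted p = 0.0554, 0.0583 and 0.0651). *Ccnb1* kept its call in 8 of the 9, with 0.57 to 0.85. *Ezh2*, *Eed*, *Suz12*, *Rnf2* and *Cbx2* were lowest in the embryo labelled *Dnmt3b*-/- with the lowest sum of this list. They were highest in the *Dnmt3b*+/+ embryo with the highest sum. *Bmi1*, *Jarid2*, *Ring1* and *Cbx7* were instead highest in the embryo with the lowest sum in both groups. *Ezh1* was highest in the embryo labelled *Dnmt3b*-/- with the lowest sum and in the *Dnmt3b*+/+ embryo with the highest. Between the mutants 12 of the 14 were higher under the *Dnmt3b*-/- label, with a median log2 difference of 0.60. The part of these genes in the differences of the Polycomb subunits was not tested.

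The second comparison asked whether the catalytically inactive allele was accompanied by any such difference. In *Dnmt3b*CI/CI embryos against *Dnmt3b*+/+, 0 of the 10 members were called by limma, with 0.144% of all genes tested called, and 0 were called with voom on reads worked back from the FPKM values. Without *Dnmt3b*CI/CI replicate 2 or 3, the libraries of this group with the lowest lens and heart sums, 0 members were called as well, with 0.0985% and 0.13% of all genes called. At an unadjusted p under 0.05 there were 2 members, beside 5.25% of all genes. *Bmi1* was one of them, with all 3 *Dnmt3b*CI/CI embryos above all 3 *Dnmt3b*+/+ embryos, where 13.2% of all genes tested had no overlap, and a log2 difference of 0.19 (95% interval 0.03 to 0.34, adjusted p = 0.878). *Cbx2* was the other, with 14.04, 15.7 and 14.9 FPKM in *Dnmt3b*CI/CI, ranges that overlapped and a log2 difference of -0.17 (95% interval -0.33 to -0.01, adjusted p = 0.939). The remaining 8 members had overlapping ranges. *Ezh2* had 12.1, 11.3 and 12.3 FPKM in *Dnmt3b*CI/CI embryos (log2 difference -0.15), *Eed* 6.20, 5.91 and 6.35 (-0.11), and *Suz12* 9.004, 8.58 and 9.19 (-0.12). *Ezh1* differed by -0.00, *Jarid2* by 0.05, *Ring1* by -0.13, *Rnf2* by 0.02 and *Cbx7* by -0.11. The 95% intervals of all 10 lay between -0.43 and 0.34, so that differences up to these sizes remain possible.

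The third comparison, of the embryos labelled *Dnmt3b*-/- with *Dnmt3b*CI/CI, is the direct test of whether the mutants differed from each other. It called 6 of the 10 members, 5 higher and 1 lower, beside 27.9% of all genes tested, 9.7% higher and 18.2% lower. *Cbx2* differed by 0.55 on the log2 scale (SE 0.07, adjusted p = 0.00175), *Eed* by 0.51 (SE 0.08, adjusted p = 0.00286), *Ezh2* by 0.43 (SE 0.09, adjusted p = 0.0107), *Suz12* by 0.34 (SE 0.10, adjusted p = 0.0333) and *Bmi1* by 0.29 (SE 0.07, adjusted p = 0.016). *Ezh1* differed by -0.47 (SE 0.09, adjusted p = 0.00766), with its call lost under quantile normalization (-0.27, adjusted p = 0.0675). For all 6 the embryos of the genotypes did not overlap, beside 46.2% of all genes tested. None reached a fold of 2, which 5.42% of all genes did. Thus *Ezh2* and *Suz12*, which did not pass against *Dnmt3b*+/+, passed against *Dnmt3b*CI/CI, the genotype with the lowest mean of the 3 for both, though *Dnmt3b*CI/CI and *Dnmt3b*+/+ embryos overlapped.

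Of these calls, that of *Suz12* was the least steady. It was lost without *Dnmt3b*+/+ replicate 3, without *Dnmt3b*-/- replicate 2 or 3, and without any one of the *Dnmt3b*CI/CI embryos, with log2 differences from 0.265 to 0.37 and adjusted p up to 0.109. *Bmi1* lost its call without *Dnmt3b*-/- replicate 2 (0.28, adjusted p = 0.05225) or *Dnmt3b*CI/CI replicate 1 (0.26, adjusted p = 0.0609). In these fits 16.3% and 16% of all genes were called between the mutants, in place of 27.9%. Without *Dnmt3b*CI/CI replicate 2 or 3, 5 members were called in all, beside 17.5% and 16.6% of all genes. The number of members called as higher was 3 without *Dnmt3b*-/- replicate 2 and 3 without *Dnmt3b*CI/CI replicate 1. *Ring1*, with 4.60, 5.74 and 5.07 FPKM in *Dnmt3b*CI/CI, differed by 0.28 (adjusted p = 0.118). *Jarid2*, *Rnf2* and *Cbx7* differed by -0.06, 0.06 and 0.10 with intervals that held 0. The comparisons share embryos, since those labelled *Dnmt3b*-/- enter both of theirs and *Dnmt3b*+/+ is the control of both mutants, so their agreement is not independent.

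The balance within pairs of related subunits was then read embryo by embryo, as a ratio of FPKM without a test. The ratio of *Ezh1* to *Ezh2* was 0.144, 0.144 and 0.142 in *Dnmt3b*+/+, 0.146, 0.179 and 0.153 in *Dnmt3b*CI/CI and 0.0969, 0.0779 and 0.0755 in the embryos labelled *Dnmt3b*-/-. All 3 of the latter lay below the other 6. The ratio of *Bmi1* to *Pcgf2* (Mel18, the other Pcgf partner of canonical PRC1) was 0.839, 0.710 and 0.608 in *Dnmt3b*+/+ and 0.843, 0.923 and 0.842 in *Dnmt3b*CI/CI, so that *Pcgf2* was the higher of the pair. In the embryos labelled *Dnmt3b*-/- it was 1.25, 1.13 and 1.11, and *Bmi1* was the higher in all 3. *Pcgf2* alone had 9.92, 10.65 and 10.3 FPKM in these embryos and 10.5, 12.8 and 12.9 in *Dnmt3b*+/+, with a log2 difference of -0.22 that did not pass the test. The ratio of *Ring1* to *Rnf2* ranged from 0.438 to 0.672 and that of *Cbx7* to *Cbx2* from 0.0170 to 0.0335 over the 9 embryos, with overlap between genotypes. These ratios use the same FPKM values as above and are no separate evidence.

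**Figure D3:**
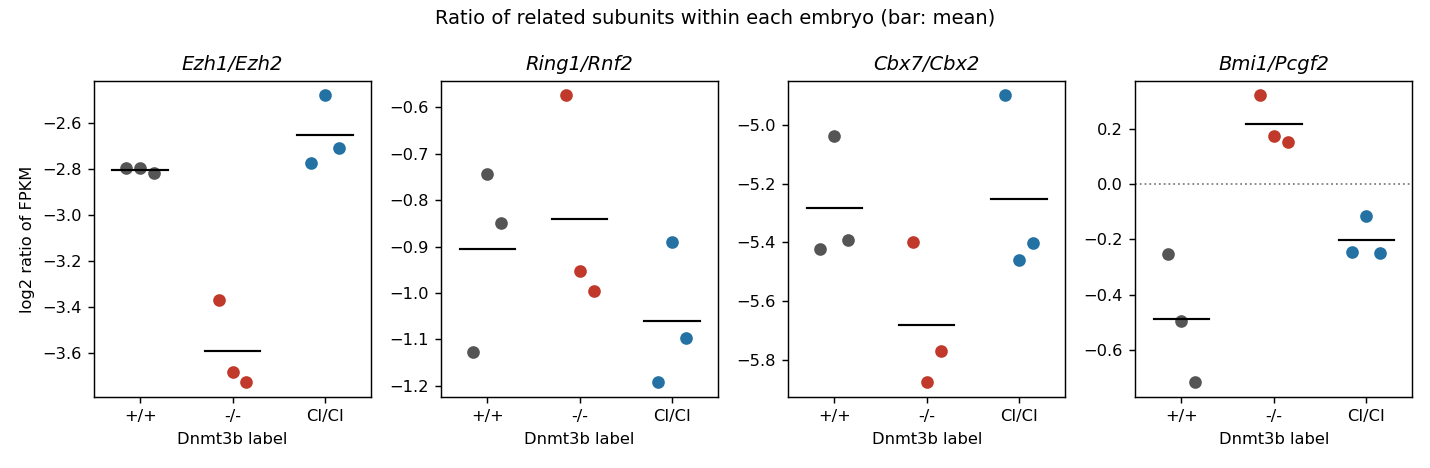
log2 ratio of FPKM for 4 pairs of related subunits, with 1 point per embryo and a bar for the mean of each *Dnmt3b* label. *Ezh1*/*Ezh2* is lower in all 3 embryos labelled *Dnmt3b*-/- than in the other 6, *Bmi1*/*Pcgf2* lies above the dotted line of equal levels only in those 3, and the remaining ratios overlap.

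For 4 members, the genes with the most similar pattern over the 9 embryos were sought among 12795 genes by Pearson's r of log2(FPKM + 0.1), as a description only, since the embryos fall into genotypes. For *Ezh2* these were *Ect2* (r = 0.994), *Heatr1* (0.989) and *Smc3* (0.987), and for *Cbx2* they were *Ctcf* (0.994), *Asxl1* (0.993) and *Tead2* (0.983). For *Ezh1* they were *Gdf5* (0.977), *Cdyl2* (0.977) and *Dstyk* (0.972). All 3 of these genes, like *Ezh1*, were lower in each embryo labelled *Dnmt3b*-/- than in the other 6, for example *Cdyl2* with 0.998, 0.956 and 0.992 FPKM against at least 1.36 FPKM. Since they were picked for likeness to *Ezh1*, this shared split follows largely from the choice. For *Cbx7* the closest were *Ddhd2* (0.924), *Dync1h1* (0.859) and *Gm9833* (0.853), lower values than for the 3 other members, at a depth of 88 to 151 reads.

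The other genes of the Polycomb system were counted by complex for the embryos labelled *Dnmt3b*-/- against *Dnmt3b*+/+, and are to be read beside the 25.8% of all genes called, 9.41% higher and 16.4% lower. Of 8 further PRC2 subunits, 2 were higher, 2 were lower and 4 did not pass, with a median log2 difference of 0.09. *Epop*, which links PRC2 to elongin, was measured at 22.1, 22.3 and 23.25 FPKM under the *Dnmt3b*-/- label, against 12.3, 13.1 and 14.2 in *Dnmt3b*+/+. All 3 were above all 6 other embryos, and the log2 difference was 0.77 (adjusted p = 0.00877). *Rbbp4*, the histone-binding subunit, differed by 0.34 (adjusted p = 0.0208), while the Polycomb-like genes *Phf1* and *Phf19* differed by -0.65 (adjusted p = 0.00966) and -0.44 (adjusted p = 0.0406). *Epop* and *Phf1* kept their calls in all 9 fits that left out 1 embryo, *Rbbp4* in 5 (0.29 to 0.42 over the 9) and *Phf19* in 4 (-0.51 to -0.35). The list had 2 calls without *Dnmt3b*+/+ replicate 3, *Dnmt3b*-/- replicate 2 or *Dnmt3b*-/- replicate 3, and 2 with quantile normalization, with the replicate block or with only these 2 genotypes fitted.

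Of 9 further canonical PRC1 subunits, 0 were higher, 3 were lower and 6 did not pass, with a median log2 difference of -0.22. The lower genes were the chromodomain gene *Cbx6* (-0.64, adjusted p = 0.016), the polyhomeotic gene *Phc3* (-0.49, adjusted p = 0.00617) and *Scmh1* (-0.31, adjusted p = 0.0106). *Cbx6* lost its call without *Dnmt3b*-/- replicate 2 (-0.61, adjusted p = 0.0589), and with quantile normalization 1 of the 3 calls was left. Of 15 subunits of variant PRC1, which lacks a Polycomb Cbx subunit, 3 were higher, 2 were lower and 10 did not pass (median -0.01). The called genes with the largest differences were *Bcorl1* (-0.41, adjusted p = 0.00424), the Rybp paralog *Yaf2* (0.41, adjusted p = 0.00886), *Pcgf6* (0.28, adjusted p = 0.0244) and *Auts2* (-0.25, adjusted p = 0.0482). *Pcgf5*, named after its values were seen, differed by -0.38 without overlap and did not pass (adjusted p = 0.051). *Pcgf6* kept its call in 5 (0.24 to 0.34) and *Auts2* in 1 (-0.29 to -0.19) of the 9 fits that left out 1 embryo. *Auts2* also lost its call in 7 of 10 settings with all embryos, among them a pseudocount of 1 FPKM, no filter, median-of-ratios scaling, quantile normalization and no variance trend (-0.25 to -0.18 over the 10). The list had 2 calls without *Dnmt3b*+/+ replicate 3 or *Dnmt3b*-/- replicate 3 and 3 without *Dnmt3b*+/+ replicate 2 or *Dnmt3b*-/- replicate 2. With the replicate block or only these 2 genotypes fitted it had 2.

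Enzymes that oppose Polycomb were also followed. Of 7 H3K27 demethylases and H2A deubiquitinase subunits, 1 was lower and 6 did not pass (median -0.10). The lower gene was *Asxl3* (-0.45, adjusted p = 0.0148), whose call was lost without *Dnmt3b*-/- replicate 2 (-0.38, adjusted p = 0.0554) or 3 (-0.42, adjusted p = 0.0508), with quantile normalization (-0.29, adjusted p = 0.05203) and with only these 2 genotypes fitted (-0.45, adjusted p = 0.05063). Of 11 genes of the trithorax COMPASS complexes, which methylate H3 at lysine 4, 1 was higher, 4 were lower and 6 did not pass (median -0.04). The lower genes were all methyltransferases, *Kmt2c* (-0.61, adjusted p = 0.00208), *Setd1b* (-0.42, adjusted p = 0.00736), *Kmt2a* (-0.39, adjusted p = 0.0117) and *Kmt2d* (-0.35, adjusted p = 0.0165). *Kmt2d* lost its call without *Dnmt3b*-/- replicate 2 (-0.30, adjusted p = 0.0632) or 3 (-0.35, adjusted p = 0.05075).

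Genes listed as developmental targets of Polycomb, and cell cycle inhibitors, were counted next. Histone marks were not measured in the data used here, so these counts are no readout of silencing. Of 20 developmental target genes, 0 were higher and 1 was lower under the *Dnmt3b*-/- label than in *Dnmt3b*+/+, with a median log2 difference of 0.01. The lower gene was the proneural factor *Neurog2*, with 10.04, 7.40 and 9.20 FPKM against 16.75, 19.5 and 15.2. It also had 6.67, 4.58 and 10.5 FPKM in *Dnmt3b*CI/CI. Both mutants lay below *Dnmt3b*+/+ in all their embryos, with log2 differences of -0.95 (adjusted p = 0.0314) and -1.30 (adjusted p = 0.292), but the first call was kept in only 3 of the 9 fits that left out 1 embryo. It was lost without any single *Dnmt3b*+/+ embryo, without *Dnmt3b*-/- replicate 2 or 3 and without *Dnmt3b*CI/CI replicate 1, with log2 differences from -1.03 to -0.82 and adjusted p up to 0.107. It was also lost without a filter (adjusted p = 0.0688) and with the replicate block (adjusted p = 0.0564). Of 4 tested of 5 listed cyclin-dependent kinase inhibitor genes of the Ink4 and Cip/Kip loci, *Cdkn1a* (p21) was the only one called, with 19.5, 16.6 and 15.2 against 7.41, 8.20 and 9.26 FPKM and a log2 difference of 1.04 (SE 0.12, adjusted p = 0.00117). It kept its call in all 9 fits that left out 1 embryo. *Cdkn2b*, an Ink4 gene that Polycomb is known to repress, had a mean of 0.228 against 0.208 FPKM and did not pass.

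**Figure D4:**
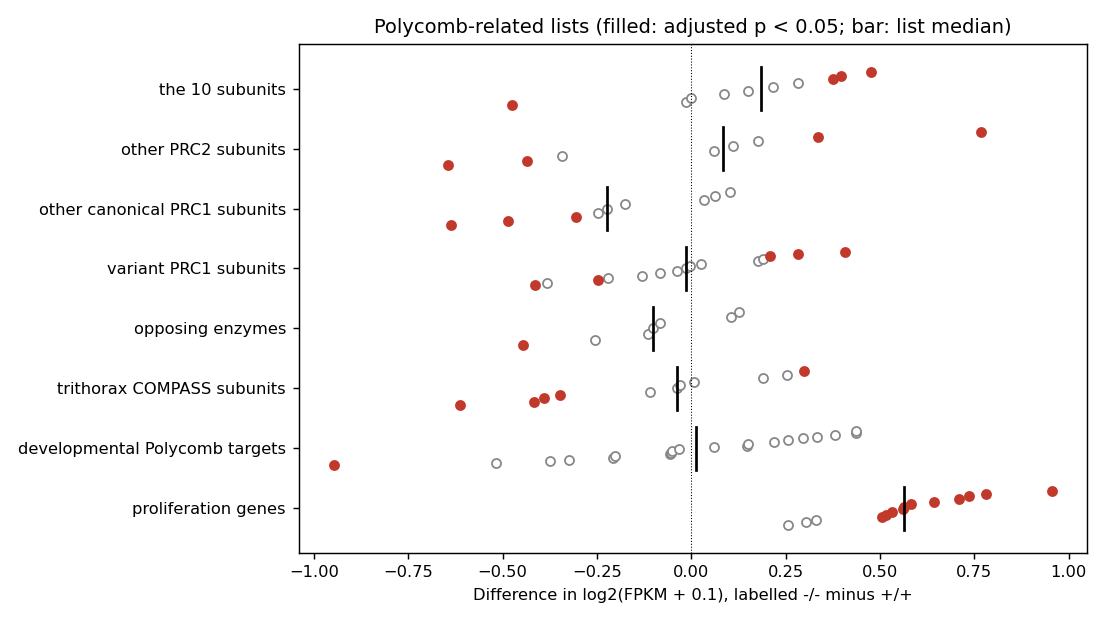
Fitted difference in log2(FPKM + 0.1) between the embryos labelled *Dnmt3b*-/- and *Dnmt3b*+/+ for every tested gene of 8 lists, with filled points past an adjusted p of 0.05 and a bar for the median of each list. The 10 subunits have a median of 0.18 and the developmental targets one of 0.01, and the proliferation genes lie wholly to the right of 0 with a median of 0.56.

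In *Dnmt3b*CI/CI against *Dnmt3b*+/+, 0 genes were called in each of these lists, beside 0.144% of all genes tested. The median log2 difference was -0.07 for the further PRC2 subunits, 0.00 for the further canonical PRC1 subunits, -0.03 for variant PRC1 and -0.09 for the developmental targets. Without *Dnmt3b*CI/CI replicate 3, 1 developmental target was called. All 3 *Dnmt3b*CI/CI embryos lay below all 3 *Dnmt3b*+/+ embryos for 6 of the 20 targets (*Nkx2-2*, *Neurog2*, *Pax6*, *Lhx2*, *Sox1* and *Dlx5*, named after their values were seen), beside 13.2% of all genes without overlap in either direction. The list of 8 neural progenitor markers shares *Pax6* and *Sox1* with the targets. In it 4 markers, these and *Sox2* and *Msi1*, lay below in the same way, with 0 called and a list median of -0.43. The summed level of the targets was 53.1 to 65.2 FPKM in *Dnmt3b*CI/CI, 78.9 to 88.8 in *Dnmt3b*+/+ and 73.8 to 77.5 under the *Dnmt3b*-/- label. Between the mutants, 2 of the 20 targets were higher where the label was *Dnmt3b*-/-, namely *Sox1* by 1.51 (adjusted p = 0.00505) and *Nkx2-2* by 1.38 (adjusted p = 0.00236), both chosen for mention after their values were seen. This is 2 of 20 beside 9.7% of all genes called as higher, and does not set the targets apart. *Sox1* had 7.68 ± 1.21 FPKM under the *Dnmt3b*-/- label, 5.64 ± 0.692 in *Dnmt3b*+/+ and 2.76 ± 1.17 in *Dnmt3b*CI/CI (SD, n = 3), and *Nkx2-2* had 1.26 ± 0.282, 1.04 ± 0.235 and 0.417 ± 0.0465 FPKM. Against *Dnmt3b*+/+ the log2 differences in *Dnmt3b*CI/CI were -1.08 for *Sox1* (adjusted p = 0.557) and -1.12 for *Nkx2-2* (adjusted p = 0.179), and those under the *Dnmt3b*-/- label were 0.44 and 0.26, none of which passed. The number of targets called in either direction between the mutants was 7 without *Dnmt3b*-/- replicate 1, where 37.4% of all genes were called, 4 without *Dnmt3b*CI/CI replicate 3, where 16.6% were, and 4 with quantile normalization, where 26.4% were.

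Markers of several tissues differed between the same embryos, which bears on values measured in whole embryos. Their counts are to be read beside the 25.8% of all genes called against *Dnmt3b*+/+ and the 27.9% called between the mutants. All 7 tested cartilage markers were lower in the embryos labelled *Dnmt3b*-/-, led by *Matn4*, *Matn1*, *Acan* and *Col11a1*, and their summed level was 83.4 to 132.5 FPKM against 148.4 to 221.7 in *Dnmt3b*+/+. Of 8 skeletal muscle markers 5 were lower, led by *Myh3*, *Myod1*, *Myog* and *Tnnt1* (88.7 to 114.2 against 119.9 to 230.1 FPKM), and of 7 lens markers 4 were lower, *Cryga*, *Crybb1*, *Cryba1* and *Prox1* (10.1 to 12.5 against 46.3 to 73.0 FPKM). Of 8 erythroid markers the embryonic globins *Hbb-bh1* and *Hba-x* were higher (2217 to 6949 against 2249 to 2872 FPKM for the list). Among 8 hepatocyte markers *Ttr* alone was lower and 7 did not pass (54.3 to 110.7 against 35.9 to 264.5 FPKM). The median log2 difference of that list was 0.37, opposite in sign to *Ttr*. Among 8 neural progenitor markers *Nes* was higher and 7 did not pass (251.1 to 341.2 against 233.2 to 315.1 FPKM). The 10 neuron markers (190.6 to 423.8 against 243.6 to 462.3 FPKM), the 8 heart markers with the sums given above and the 6 endothelial markers (26.05 to 27.6 against 25.5 to 28.5 FPKM) had 0 calls. No marker of these lists was called in *Dnmt3b*CI/CI against *Dnmt3b*+/+, where 0.144% of all genes tested were called. The list medians of the log2 difference there ran from -1.05 for lens to 1.80 for hepatocyte markers. The absence of calls therefore does not show a like content of tissues. Between the mutants, 6 of 7 cartilage markers were lower under the *Dnmt3b*-/- label (212.8 to 224.7 FPKM for the list in *Dnmt3b*CI/CI), as were 6 of 8 muscle markers (204 to 257), 3 of 7 lens markers (10.5 to 90.1), 2 of 6 endothelial markers (29.7 to 31.6) and 1 of 8 hepatocyte markers (164.6 to 194.8). Higher were 4 of 8 neural progenitor markers (231.5 to 262.4) and 2 of 8 erythroid markers (2093 to 2852), and 0 neuron and 0 heart markers were called. Several of the counts against *Dnmt3b*+/+ moved when 1 embryo was left out, while the named markers kept their direction. The number of muscle markers called was 0 without *Dnmt3b*+/+ replicate 3 or *Dnmt3b*-/- replicate 3 and 1 without *Dnmt3b*-/- replicate 2 or *Dnmt3b*+/+ replicate 2, and the log2 difference of *Myh3* ranged from -2.27 to -1.43 over the 9 fits. The number of lens markers called was 0 without *Dnmt3b*+/+ replicate 2 or *Dnmt3b*-/- replicate 2 or 3, 1 without *Dnmt3b*+/+ replicate 3 and 2, neither of them among the 4 named, without *Dnmt3b*+/+ replicate 1. *Cryga* had 247, 167 and 128 reads in *Dnmt3b*+/+ and at most 1 read in each embryo labelled *Dnmt3b*-/- and in *Dnmt3b*CI/CI replicate 2, so that its fitted difference depends on the pseudocount and is no measure of size. It was -2.63 with a pseudocount of 1 FPKM and -7.815 with voom, where it was not called (adjusted p = 0.231). For erythroid markers it was 1 without *Dnmt3b*+/+ replicate 3 or *Dnmt3b*-/- replicate 3, with *Hba-x* from 1.33 to 2.25. With the replicate block 2 muscle markers were called and with only these 2 genotypes fitted 1 muscle and 1 erythroid marker, while without a filter 2 muscle markers and 1 lens marker were. Without *Dnmt3b*+/+ replicate 2, 5 hepatocyte and 2 neural progenitor markers were called, and without *Dnmt3b*-/- replicate 1, 6 neuron markers were called. The *Nes* call was lost without *Dnmt3b*+/+ replicate 1 or 3, *Dnmt3b*-/- replicate 3 or any *Dnmt3b*CI/CI embryo, with log2 differences from 0.33 to 0.64 over the 9 fits, and also without a filter, without a variance trend, with quantile normalization, with the replicate block and with only these 2 genotypes fitted. Between the mutants, leaving out each embryo gave 0 to 7 called neuron markers, 0 to 6 hepatocyte, 0 to 6 lens and 1 to 2 endothelial markers. For the other lists it gave 3 to 4 neural progenitor, 6 to 7 cartilage, 5 to 7 muscle, 2 to 3 erythroid and 0 heart markers. The lens count there moved without *Dnmt3b*-/- replicate 2 or 3 or *Dnmt3b*CI/CI replicate 2. The part of these tissues in the values of the Polycomb subunits was not tested.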

How the data were processed

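Total RNA of 9 whole E11.5 embryos was sequenced by the authors as paired-end reads, aligned with STAR (version not given in the sources used here) to mm10, filtered on mapping quality and quantified in SeqMonk. They deposited 1 table of FPKM values on the linear scale for 34245 rows, of which 1 carried no gene name and 46 repeated an identifier. The annotation release and the strandedness were not given in the sources used here. Because FPKM values are not counts, no count model was fitted to them.

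Genotypes were taken from the labels, which describe independent embryos. A gene entered the test when 3 or more of the 9 embryos had 0.1 FPKM or more, which left 19397 genes, tested on log2(FPKM + 0.1), a scale that understates the change of low genes, with limma 3.58.1 in R 4.3.3, using all 9 embryos, the genotype as the only term and a variance trend, with Benjamini-Hochberg adjustment over all genes tested. Whole reads were worked back from FPKM with exon lengths of GENCODE M21 for 31332 genes (91.5%, within 0.02 reads). A gene without reads is listed at the value of 0.9 reads. The depth behind the members is given from these reads, and counting errors cover counting only. The limma script was tested on simulated data.

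The 10 members are defined by name and no measured value enters the definition, but the members, the gene lists and the tests were chosen with earlier results of these data known. From each other list, at most the 4 called genes with the largest differences between embryos labelled *Dnmt3b*-/- and *Dnmt3b*+/+ were named, and further names are said to be chosen afterwards. Marker lists were neuron, neural progenitor, cartilage, skeletal muscle, heart, erythroid, hepatocyte, endothelial and lens. Alternatives were other pseudocounts, filters, scalings and variance models, a fit of the compared genotypes alone, a replicate block and leaving out each embryo. The fit with voom on recovered reads was chosen after seeing the data. Promoters are RefSeq records on GRCm38.p6, found for 9 of the 10 members. Bisulfite sequencing and tumor cells were not analysed here. Figures were drawn with python 3.11.15.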

Additional observations from a re-analysis of the deposited data

How the results depend on the processing

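The number of members called was 4 for embryos labelled *Dnmt3b*-/- against *Dnmt3b*+/+ (3 with quantile normalization, 4 to 6 with each embryo left out), 0 for *Dnmt3b*CI/CI against *Dnmt3b*+/+ in every setting run, and 6 between the mutants (4 to 6). Calls of *Bmi1*, *Eed* and *Cbx2* against *Dnmt3b*+/+ held in all settings. Small differences changed sign. *Jarid2* against *Dnmt3b*+/+ in embryos labelled *Dnmt3b*-/- was 0.0108 with median-of-ratios scaling, 0.0170 with quantile normalization and -0.0838 to 0.0537 with each embryo left out, and *Cbx7* was 0.20 with quantile normalization and -0.102 to 0.0635 with each embryo left out. In *Dnmt3b*CI/CI, leaving out each embryo gave -0.0517 to 0.0650 for *Ezh1* and -0.00165 to 0.0486 for *Rnf2*. Quantile normalization also called *Ring1* between the mutants (0.35, adjusted p = 0.0478) and moved the share of higher genes among all calls from 36.5% to 52.2% against *Dnmt3b*+/+ and from 34.8% to 55.5% between the mutants. The cause was not tested. Without a filter *Suz12* lost its call between the mutants (0.34 as before, adjusted p = 0.0633). Deviations from the group mean had a mean r of -0.0865 over 9 pairs of same-numbered embryos (-0.34 to 0.215). Over 18 other pairs it was 0.0478 (-0.2689 to 0.3297). The deviations sum to 0 within each group, so the 2 means depend on each other. They cannot show whether same-numbered embryos share a litter or batch. With the replicate block 4, 0 and 5 members were called, *Suz12* being lost between the mutants (0.34, adjusted p = 0.0502), and 1075 higher and 1954 lower genes were called against *Dnmt3b*+/+ in embryos labelled *Dnmt3b*-/-, in place of 1826 and 3175. Other counts over all genes that differed by more than 1.5 times were, against *Dnmt3b*+/+, 1038 higher and 1759 lower with only those 2 genotypes fitted, 2044 lower with quantile normalization, and 808 to 2323 higher and 1580 to 4536 lower with each embryo left out. Between the mutants (1882 higher, 3525 lower) they were 1212 higher with the block, 2840 higher and 2281 lower with quantile normalization, and 1016 to 2387 higher and 1954 to 4812 lower with each embryo left out. For *Dnmt3b*CI/CI against *Dnmt3b*+/+ the 3 lower genes became 0 to 7 over all settings. Depth limits *Cbx7* most.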
